A study of Rattus norvegicus with 4 samples.

Results

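Transcripts of the genes for proteasome subunits, activators and assembly factors were followed in 4 RNA-seq libraries of rat ear skin. The members were chosen by name, as protein-coding rows whose mouse symbol begins with Psm, a letter from a to g and a number, which gave 50 of the 54532 rows of the count table. The family was proposed with results of these libraries known, and Psma2 was selected on its counts in the AAV-Fgf7 and control libraries, so its difference between them is given as a description with no test. By class there were 8 core alpha genes, 7 constitutive and 4 inducible or tissue-specific core beta genes, 6 ATPase genes, 3 base genes without ATPase activity, 8 lid genes, 5 activator genes, 1 inhibitor gene and 7 assembly chaperone genes. The remaining match, Psmc3ip, encodes a meiotic recombination protein and is no subunit.

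The AAV-Fgf7 group held 2 libraries, from ears injected with adeno-associated virus carrying Fgf7, which the labels call Fgf7 overexpression. The control group held 2 libraries, from the other ear of the same 2 Sprague Dawley (SD) rats, given AAV-control and labelled wt. All 4 were taken on day 3 at the injection sites. The promoter of the virus and the age of the rats were not found in the labels, and titles and design text disagree on which ear received which virus. The rows are mouse gene models although the animals were rats, and 49 of the 50 member symbols also occur in the rat RefSeq gene table (assembly GRCr8), all but Psme2b.

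The proteasome degrades proteins that carry ubiquitin chains. Its core particle is a barrel whose outer rings are alpha subunits, which gate entry, and whose inner rings are beta subunits, of which 3 per ring cut peptide bonds. A regulatory particle of ATPases, scaffold subunits and a lid binds the ubiquitylated substrate, removes the ubiquitin and unfolds the chain. The subunits work in fixed proportions, and cells are known to raise their genes together through the transcription factor NFE2L1 when proteasome activity falls. Ear skin is a mixed tissue, and in bulk RNA fewer cells of a type and less RNA per cell cannot be told apart.

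Libraries held 1433247 and 1417294 counts in AAV-Fgf7 ears and 1299136 and 1601321 counts in control ears of rats 1 and 2. Fgf7 itself stood at 321 and 989 CPM in AAV-Fgf7 ears and at 71.4 and 73.2 CPM in control ears. CPM are counts scaled to a common library total of 1e+06. Epidermal and dermal markers were present, with Krt5, Krt14, Krt1, Krt10, Col1a1 and Col1a2 among those counted, while Dsg3, Dcn and Lum had no counts. The 12 skeletal muscle markers, 11 of them counted and Tnnc2 at 0, summed to 29748 and 14560 CPM in AAV-Fgf7 ears and 13738 and 57043 CPM in control ears, so the control ear of rat 2 held the most muscle RNA. Its part in the results below was not tested.

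Of the 50 members, 42 had a count in at least 1 library, and 29 passed the low-count filter and were tested. Together the 50 took 0.457% and 0.491% of all counts in AAV-Fgf7 ears and 0.483% and 0.369% in control ears, so the groups overlapped and the control ear of rat 2 was lowest. The edgeR quasi-likelihood test called 0 of the 28 tested members other than Psma2 and 0 of all 6370 genes (0%) at an adjusted p under 0.05. Of those 28, 0 had an unadjusted p under 0.05, against 148 of all 6370 genes, and DESeq2 and limma-voom also called 0 members. Fgf7, the gene carried by the virus, was not called by edgeR either, at a log2 fold change of 3.18 (SE 0.54, adjusted p = 0.9996). The lack of calls therefore does not show a lack of change.

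The 28 tested members other than Psma2 had a median log2 fold change (AAV-Fgf7 over control) of 0.10, and all 6370 genes had one of -0.02. It was positive for 19 of the 28, or 67.9%, and for 47.8% of all tested genes. Both AAV-Fgf7 ears lay above both control ears for 7 of the 28, or 25.0%, against 14.8% of all tested genes. Both lay below both controls for 0 of the 28, against 13.3% of all tested genes. This lean depended on the control ear of rat 2. Without it the median was 0.02, with 16 of the 28 positive, and without the control ear of rat 1 the median was 0.18, with 22 positive. Within rat 1 the median log2 ratio of AAV-Fgf7 to control ear (on CPM + 1) was -0.01 over the 28 members, and within rat 2 it was 0.27. Every value by rat rests on which AAV-Fgf7 column belongs to which rat, which the labels leave unsure. With these 2 columns exchanged, the medians were 0.05 against the control ear of rat 1 and 0.21 against that of rat 2.

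**Figure D1:**
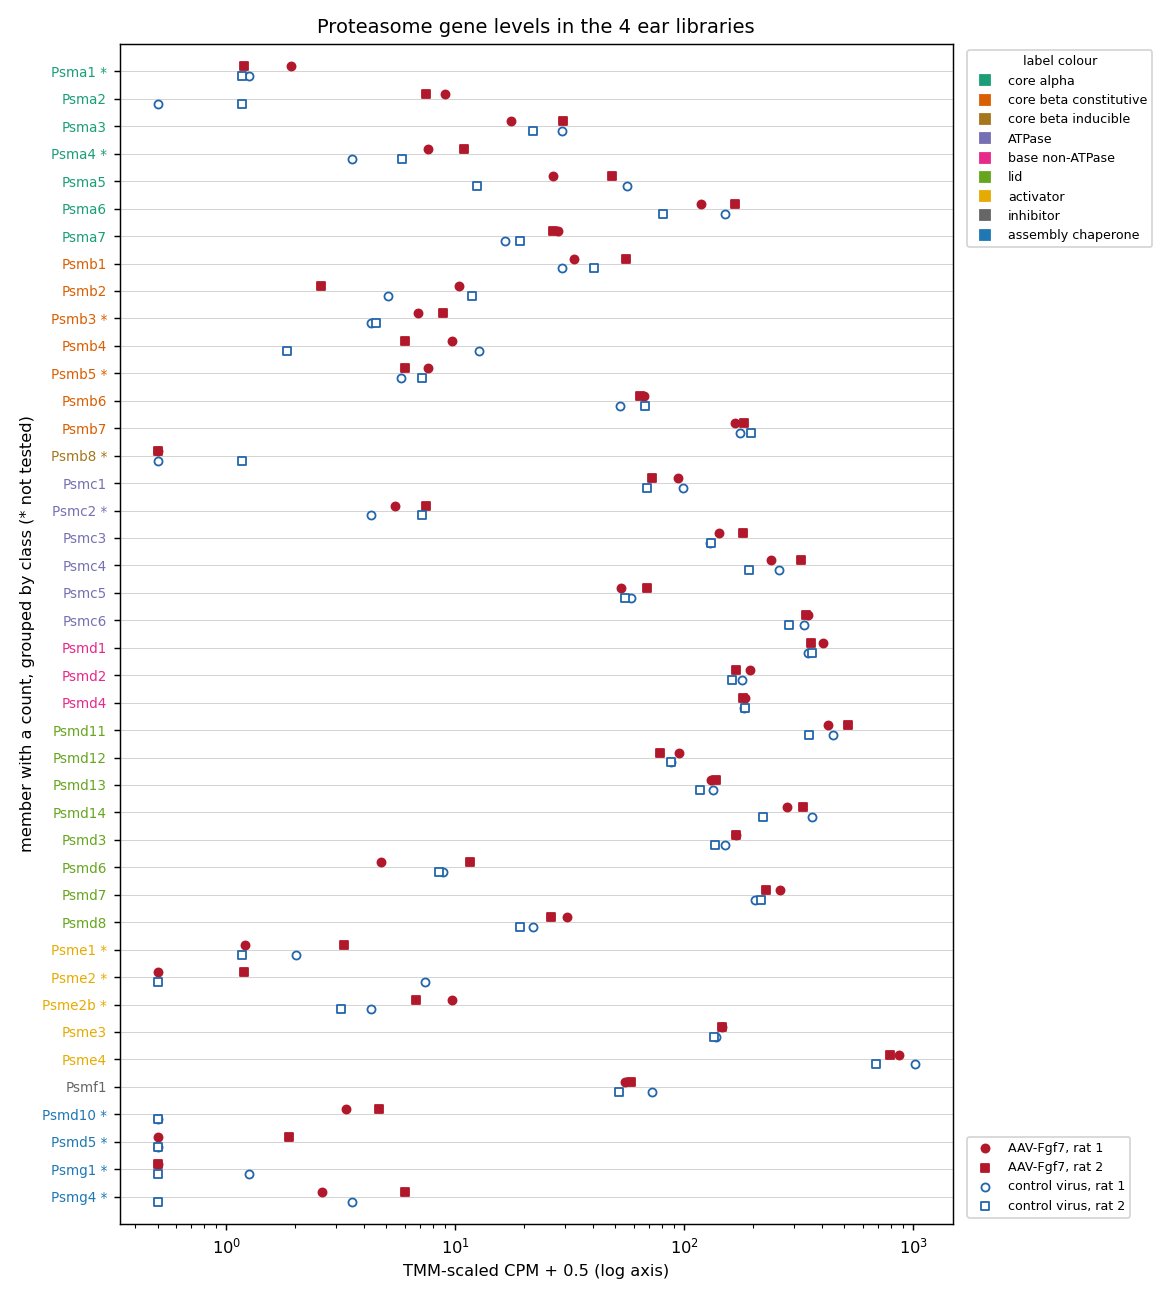
Levels of the 42 members with a count, as TMM-scaled CPM plus 0.5 on a log axis, with 1 symbol per library (filled for AAV-Fgf7, open for control virus, circles for rat 1 and squares for rat 2). The symbols of most ATPase, base and lid genes lie close together, while Psma2 and Psmd10 have their AAV-Fgf7 symbols well to the right of their control symbols.

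Among the alpha subunit genes, which form the gated outer rings, Psma2 stood apart. Its raw counts were 12 in the AAV-Fgf7 ear of rat 1 and 10 in that of rat 2, against 0 and 1 in the control ears. The AAV-Fgf7 ears therefore held it at 7.70 ± 1.10 CPM and the control ears at 0.333 ± 0.471 CPM (SD, n = 2). With 12 counts at most in a library, these levels are imprecise. The table lists Psma2 as ENSMUSG00000015671, with a 3673-base gene model at mouse chr13:14613240-14674236 on the plus strand, in a mouse build not named by any source used here.

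Psma2 passed the low-count filter through its AAV-Fgf7 libraries alone, so it could enter the fit only as a gene that was higher there, and no fold change is given for it. Over both ears it had 11 counts in rat 2 and 12 in rat 1. The log2 difference of rat 2 over rat 1 had no stable sign, at 0.07 as a difference of mean log2 CPM (prior count 2), 0.60 on the deposited FPKM and -0.19 (SE 1.41) in the edgeR fit. The 9 keratinocyte markers also ran higher in AAV-Fgf7 ears, at a sum of 2914 and 6404 CPM against 2077 and 1844 CPM in control ears. Of these 9, 8 had a count and Dsg3 was at 0, and their part in the Psma2 counts was not tested.

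The rat promoter window of Psma2 is shown because its counts stood apart. RefSeq places it at chr17:55260392-55260691, minus strand (GRCr8), from 250 bases before to 50 after the gene's start, and the capitals mark the CCAAT box, whose first base is base 174 of the window.
Psma2: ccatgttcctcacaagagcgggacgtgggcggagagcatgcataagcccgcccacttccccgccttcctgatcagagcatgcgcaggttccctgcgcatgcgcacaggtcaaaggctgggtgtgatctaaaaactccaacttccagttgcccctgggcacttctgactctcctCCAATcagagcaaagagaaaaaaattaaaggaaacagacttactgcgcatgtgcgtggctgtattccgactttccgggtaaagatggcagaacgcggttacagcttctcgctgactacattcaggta

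All other alpha subunit genes but Psma8 had counts in both groups. Psma1 had raw counts of 2 and 1 in AAV-Fgf7 ears and 1 and 1 in control ears, too few to test. Psma3 stood at 16.9 and 29.1 CPM in AAV-Fgf7 ears and 28.9 and 21.3 CPM in control ears, which overlapped. Psma4 had counts of 10 and 15 in AAV-Fgf7 ears and 4 and 8 in control ears. Both AAV-Fgf7 ears were thus higher for Psma4, by a count ratio of 2.05 with an exact 95% interval, for counting error only, of 0.994 to 4.49, but the gene failed the filter and was not tested.

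Psma5 stood at 26.1 and 47.8 CPM in AAV-Fgf7 ears and 55.4 and 12.0 CPM in control ears. The control ears of the 2 rats bracketed both AAV-Fgf7 ears, and the highest library held 4.63 times the lowest. Psma6 stood at 118 and 165 CPM in AAV-Fgf7 ears against 150.3 and 79.9 CPM in control ears, again with overlap. Both genes were lowest in the control ear of rat 2, the library with the most muscle RNA. Psma7 stood at 27.5 and 26.3 CPM in AAV-Fgf7 ears and 15.9 and 18.6 CPM in control ears. Its groups did not overlap, and its log2 fold change of 0.63 (SE 0.35) was the largest of the 28, with an edgeR adjusted p of 0.9996.

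On the FPKM scale, which divides by gene length, the alpha genes were far from equal although the particle holds equal numbers of each subunit. Psma6 made up 71.1% and 69.6% of the summed alpha FPKM in AAV-Fgf7 ears and 68.5% and 73.6% in control ears. Psma2 made up 1.72% and 0.978% in AAV-Fgf7 ears and 0% and 0.206% in control ears. Psma1 made up at most 0.356% in any of the 4 libraries. How many reads of a rat gene reach its mouse gene model was not tested, so the order of levels between genes may not be that of the transcripts. Psma8, an alpha subunit known from testis, had 0 counts.

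**Figure D2:**
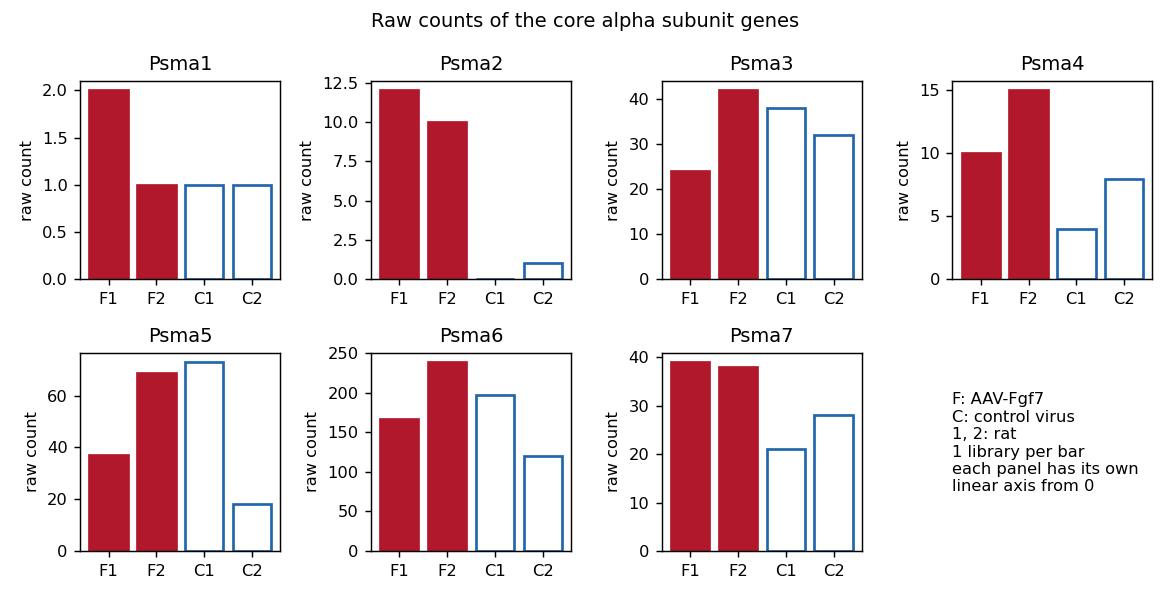
Raw counts of the 7 alpha subunit genes that had a count, with 1 bar per library (F, AAV-Fgf7; C, control virus; 1 and 2, rat) and a linear axis from 0 in each panel. Psma2 reads 12 and 10 in the F bars against 0 and 1 in the C bars, whereas in Psma3, Psma5 and Psma6 the F and C bars interleave.

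The constitutive beta subunit genes form the inner rings. Of their 3 catalytic genes, Psmb7 (trypsin-like activity) stood at 166 and 181 CPM in AAV-Fgf7 ears and 175 and 196 CPM in control ears. Psmb6 (caspase-like activity) stood at 66.4 and 63.7 CPM in AAV-Fgf7 ears and 51.6 and 66.6 CPM in control ears. Psmb5 (chymotrypsin-like activity, and the site that the drug bortezomib blocks) had raw counts of 10 and 8 in AAV-Fgf7 ears and 7 and 10 in control ears. All of these groups overlapped, and the log2 fold changes of the tested pair were -0.09 (SE 0.20) for Psmb7 and 0.14 (SE 0.27) for Psmb6.

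Psmb6 carries in its rat promoter window a match to the antioxidant response element core that NFE2L1 is known to bind, and the sequence is shown for that reason. It lies at chr10:55737638-55737937, plus strand (RefSeq, GRCr8), and the capitals mark the match, which begins at base 227 of the window.
Psmb6: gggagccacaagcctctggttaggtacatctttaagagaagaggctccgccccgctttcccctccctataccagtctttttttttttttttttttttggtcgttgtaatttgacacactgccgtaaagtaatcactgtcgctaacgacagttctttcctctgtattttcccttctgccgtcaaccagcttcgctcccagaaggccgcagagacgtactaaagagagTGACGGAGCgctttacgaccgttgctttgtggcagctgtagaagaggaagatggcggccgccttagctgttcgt

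The structural beta genes were less even. Psmb1 stood at 32.5 and 55.4 CPM in AAV-Fgf7 ears and 28.9 and 39.9 CPM in control ears, a log2 fold change of 0.35 (SE 0.38). Psmb2 stood at 9.89 and 2.08 CPM in AAV-Fgf7 ears and 4.56 and 11.3 CPM in control ears. Its raw counts were 14 and 3 in AAV-Fgf7 ears and 6 and 17 in control ears. As the columns were numbered, the AAV-Fgf7 ear held 2.17 times the control ear in rat 1 and 0.184 times it in rat 2. With the AAV-Fgf7 columns exchanged, the AAV-Fgf7 ear was the lower in both pairs, so the reversal rests on the unsure numbering. Psmb4 stood at 9.18 and 5.54 CPM in AAV-Fgf7 ears and 12.1 and 1.33 CPM in control ears, from raw counts of 13 and 8 against 16 and 2. Psmb3 had raw counts of 9 and 12 in AAV-Fgf7 ears and 5 and 6 in control ears, a count ratio of 1.88 with an interval of 0.867 to 4.32, and failed the filter. None of the tested beta genes passed, with log2 fold changes from -0.42 (SE 0.85) for Psmb2 to that of Psmb1.

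The inducible beta subunits replace the catalytic ones in immune cells and after interferon, and they trim peptides for antigen presentation. Psmb9 and Psmb10 had 0 counts in all 4 libraries, and Psmb8 had 1 count, in the control ear of rat 2. Psmb11, the counterpart of the thymus, also had 0 counts. A count of 0 over a group allows up to 3 counts. The 7 leukocyte markers summed to 219 and 316 CPM in AAV-Fgf7 ears and 429 and 148 CPM in control ears, with 6 of the 7 counted and Cd3e at 0. The antigen presentation and interferon list was near 0 as well, since 5 of its 7 genes had a count and 0 passed the filter. B2m, the light chain of class I molecules that nearly every cell makes, had only 0 and 2 counts in AAV-Fgf7 ears and 2 and 3 counts in control ears. Low counts of these genes thus cannot be told apart from loss of rat reads under the mouse gene models.

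The rat promoter window of Psmb8 is shown as that of an interferon-induced member. It lies at chr20:4656982-4657281, minus strand (RefSeq, GRCr8), and capitals mark a match to the interferon-response letters TTTCNNTTT that begins at base 247.
Psmb8: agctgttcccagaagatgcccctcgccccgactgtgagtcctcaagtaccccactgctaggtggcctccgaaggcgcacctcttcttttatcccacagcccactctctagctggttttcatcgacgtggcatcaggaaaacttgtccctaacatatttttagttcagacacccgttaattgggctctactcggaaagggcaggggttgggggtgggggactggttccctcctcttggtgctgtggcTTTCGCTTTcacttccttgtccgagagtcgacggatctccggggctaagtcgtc

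Windows of this length were found for 44 of the 50 members, among 33469 windows of rat genes of all kinds, and motifs were searched on both strands. The motifs were chosen after the sequences were seen, and a match is a description of letters. An ETS core, ACTTCCG, occurred in 17 of the 44 member windows (38.6%) and in 6.32% of all windows. A GC box, GGGCGG, occurred in 72.7% of member windows and 33.1% of all windows. The CCAAT box occurred in 22 of the 44 against 37.5% of all windows, the antioxidant element core TGACNNNGC in 18.2% against 12.1%, and TTTCNNTTT in 22.7% against 11.8%. The full antioxidant element TGACTCAGC was in 0 member windows and in 0.415% of all windows. The Psma2 window holds the CCAAT box, the GC box and TTTCNNTTT, and neither the ETS nor the antioxidant letters.

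The ATPase genes encode the ring that unfolds substrates and threads them into the core. Of 6, 5 were tested, and their median log2 fold change was 0.14. Psmc4 stood at 239 and 323 CPM in AAV-Fgf7 ears and 258 and 191 CPM in control ears, the largest log2 fold change of the class at 0.33 (SE 0.25). Psmc1 stood at 93.2 and 72.0 CPM in AAV-Fgf7 ears and 97.9 and 67.9 CPM in control ears, the lowest at -0.0038 (SE 0.29). Its virus groups overlapped, while both libraries of rat 2, as the columns were numbered, were below both of rat 1.

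For 2 of the 5 tested ATPase genes both AAV-Fgf7 ears were above both control ears, against 14.8% of all tested genes. Psmc3 stood at 141 and 179 CPM in AAV-Fgf7 ears against 128 and 130.5 CPM in control ears, with a log2 fold change of 0.31 (SE 0.21). Psmc6 stood at 345 and 338 CPM in AAV-Fgf7 ears against 334 and 286 CPM in control ears, with one of 0.14 (SE 0.19). Psmc5 stood at 0.10 (SE 0.28). Psmc2 had raw counts of 7 and 10 in AAV-Fgf7 ears and 5 and 10 in control ears and was not tested. The edgeR adjusted p was 0.9996 for each tested ATPase gene.

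The base genes without ATPase activity had narrow spans over the libraries. Psmd4, which encodes a ubiquitin receptor, stood at 183 and 180.0 CPM in AAV-Fgf7 ears and 182 and 184 CPM in control ears. Its highest library was 1.02 times its lowest. Psmd1 and Psmd2 encode the large scaffold subunits. Psmd1 stood at 403 and 356 CPM in AAV-Fgf7 ears and 346 and 359 CPM in control ears, with a log2 fold change of 0.11 (SE 0.18). Psmd2 stood at 0.08 (SE 0.20) and Psmd4 at -0.01 (SE 0.19).

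All 8 lid genes were tested, and 6 had a positive log2 fold change, with a class median of 0.16. Psmd8 stood at 30.4 and 25.6 CPM in AAV-Fgf7 ears and 21.3 and 18.6 CPM in control ears, the largest of the class at 0.49 (SE 0.34). Psmd6 stood at 4.24 and 11.1 CPM in AAV-Fgf7 ears and 8.35 and 7.99 CPM in control ears, the lowest at -0.09 (SE 0.63). For 3 of the 8, Psmd3, Psmd7 and Psmd8, both AAV-Fgf7 ears were above both control ears, against 14.8% of all tested genes. The log2 fold change was 0.23 (SE 0.19) for Psmd3 and 0.22 (SE 0.19) for Psmd7. Psmd14, the deubiquitinase that cuts ubiquitin from the substrate, stood at 0.08 (SE 0.28). Psmd11, a lid subunit whose level is known to limit assembly of the full particle, stood at 0.25 (SE 0.22). Psmd13 stood at 0.09 (SE 0.20) and Psmd12 at -0.02 (SE 0.24). None passed edgeR (adjusted p = 0.9996 for each).

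**Figure D3:**
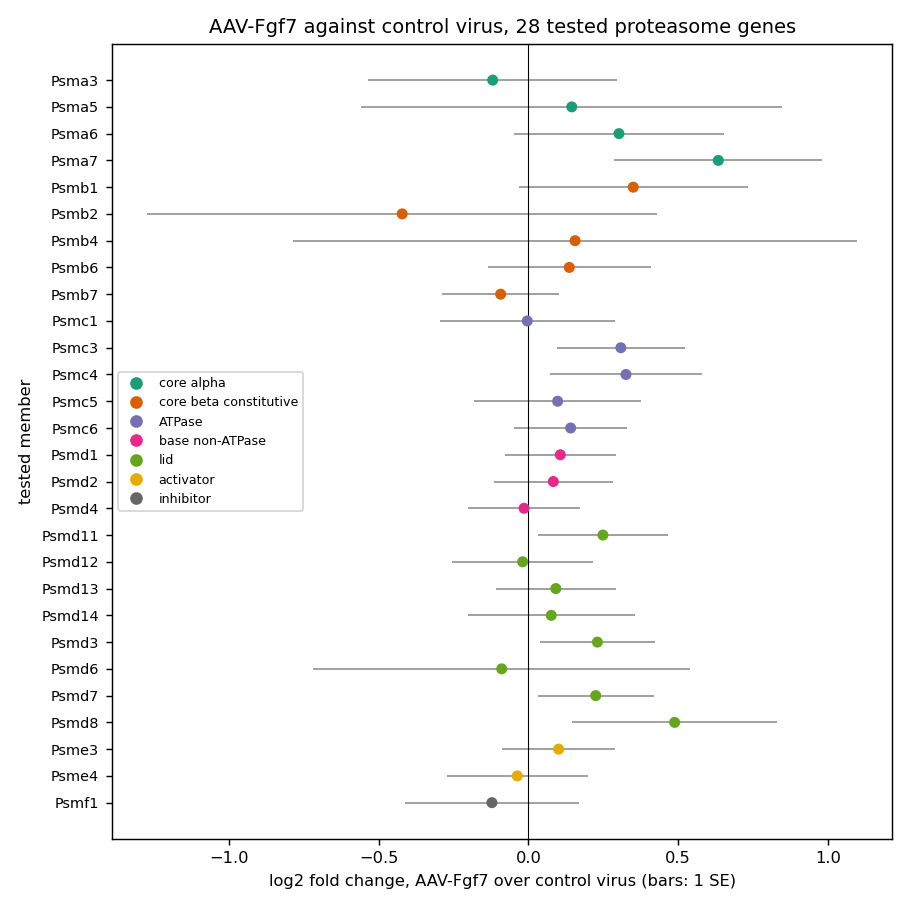
Log2 fold change of AAV-Fgf7 over control virus for the 28 tested members other than Psma2, with bars of 1 SE and colours for the class. The points lie between -0.42 and 0.63, and most bars cross 0.

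Activators cap the core in place of the regulatory particle. Psme4, a large nuclear activator, stood at 867 and 794 CPM in AAV-Fgf7 ears and 1016 and 688 CPM in control ears. Its groups overlapped, with a log2 fold change of -0.04 (SE 0.24). Both libraries of rat 2, as the columns were numbered, were below both of rat 1. Psme3, the nuclear activator subunit that is not induced by interferon, stood at 145 and 146 CPM in AAV-Fgf7 ears and 137 and 134 CPM in control ears. The groups did not overlap but differed little, with a log2 fold change of 0.10 (SE 0.19).

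The interferon-induced activator genes had few counts. Psme1 had raw counts of 1 and 4 in AAV-Fgf7 ears and 2 and 1 in control ears. Psme2 had 0 and 1 in AAV-Fgf7 ears and 9 and 0 in control ears, a count ratio of 0.11 with an interval of 0.0025 to 0.79 that rests on the 9 counts of 1 library. Psme2b, a mouse copy of Psme2, had 13 and 9 in AAV-Fgf7 ears and 5 and 4 in control ears, a count ratio of 2.41 with an interval of 1.07 to 5.94. The pair leaned opposite ways, and reads may be split between them, so their values are uncertain. Psmf1, which encodes an inhibitor of the core in vitro, stood at 54.4 and 58.2 CPM in AAV-Fgf7 ears and 71.4 and 51.2 CPM in control ears, a log2 fold change of -0.12 (SE 0.29).

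Assembly chaperones hold subunits during construction and leave the finished particle. None of the 7 passed the filter. Psmd10, also called gankyrin, a chaperone of the ATPase ring, had raw counts of 4 and 6 in AAV-Fgf7 ears and 0 and 0 in control ears. These counts were too few to test. Psmg4, a chaperone of the alpha ring, had 3 and 8 in AAV-Fgf7 ears and 4 and 0 in control ears. Psmd5 had 0 and 2 in AAV-Fgf7 ears and none in control ears, and Psmg1 had none in AAV-Fgf7 ears and 1 and 0 in control ears. Psmd9, Psmg2 and Psmg3 had 0 counts, as did Psmc3ip.

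Per gene length, the members with the highest mean FPKM over the 4 libraries were Psmc4 at 115, Psmd14 at 103, Psma6 at 102, Psmd7 at 98.6, Psme4 at 98.5 and Psmc6 at 91.4. Psmc4 stood at 108 and 147 FPKM in AAV-Fgf7 ears and 118 and 86.7 FPKM in control ears, a range that holds the means of the other 5, so this order lies within the spread between libraries.

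Summed by class on the FPKM scale, the alpha sum varied most and the base sum least among the tested classes of more than 1 gene. A sum follows the highest genes of its class, which for alpha was Psma6. Gene by gene, the widest CPM spans of tested members other than Psma2 were those of beta genes, Psmb4 at 9.13-fold and Psmb2 at 5.45-fold. Alpha FPKM summed to 132 and 189 in AAV-Fgf7 ears and 175 and 86.4 in control ears, a 2.19-fold span over the libraries. Constitutive beta FPKM summed to 112 and 111 in AAV-Fgf7 ears and 101 and 118 in control ears. ATPase FPKM summed to 343 and 394 in AAV-Fgf7 ears and 352 and 290.1 in control ears. Base FPKM summed to 165 and 152 in AAV-Fgf7 ears and 154 and 152 in control ears, a 1.08-fold span. Lid FPKM summed to 392 and 407 in AAV-Fgf7 ears and 393 and 326 in control ears. Activator FPKM summed to 160.5 and 150.4 in AAV-Fgf7 ears and 174 and 129 in control ears. The groups overlapped in each of these 6 sums, and 4 of them (alpha, ATPase, lid and activator) had their lowest value in the control ear of rat 2.

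**Figure D4:**
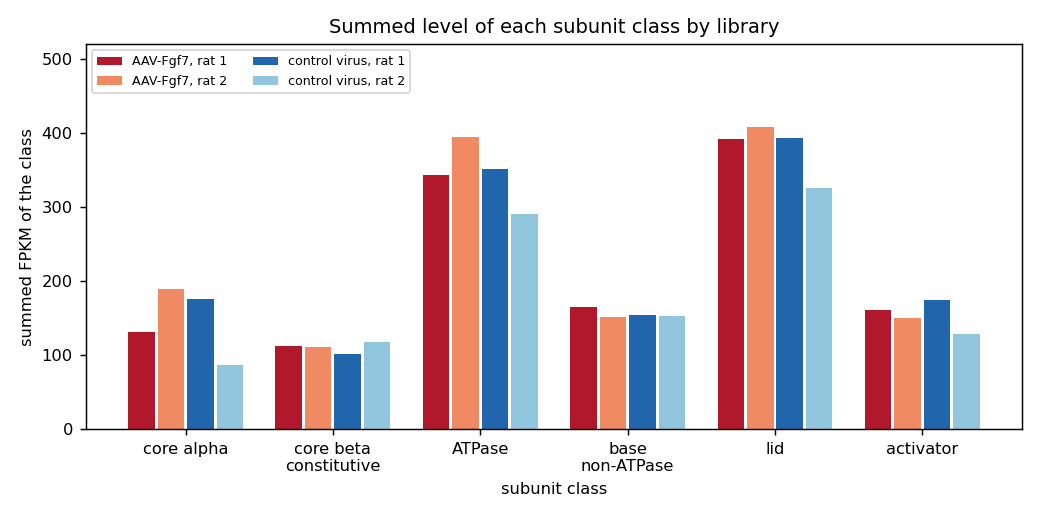
Summed FPKM of 6 subunit classes, with 1 bar per library (red shades for AAV-Fgf7, blue shades for control virus). The base bars are almost level at 152 to 165, while the alpha bars run from 86.4 to 189 with the control ear of rat 2 lowest.

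The spread over the libraries depended on the level of the gene. Among tested genes with a mean count of at least 50, the highest library was a median of 1.29 times the lowest for 21 members and 1.45 times for all 3370 such genes. It was under 1.5 times for 17 of the 21 members and for 56.2% of all such genes. Over 2 times it was for 1 member, Psma6 at 2.07, and for 16.1% of all such genes. The 7 tested members below that mean count, Psma2 aside, spanned more, from 1.63 times for Psmd8 to 9.13 times for Psmb4, with a median of 2.61 against 2.05 for all 3000 tested genes below it. Psma5, at 4.63 times, lay just under the limit with a mean count of 49.2.

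**Figure D5:**
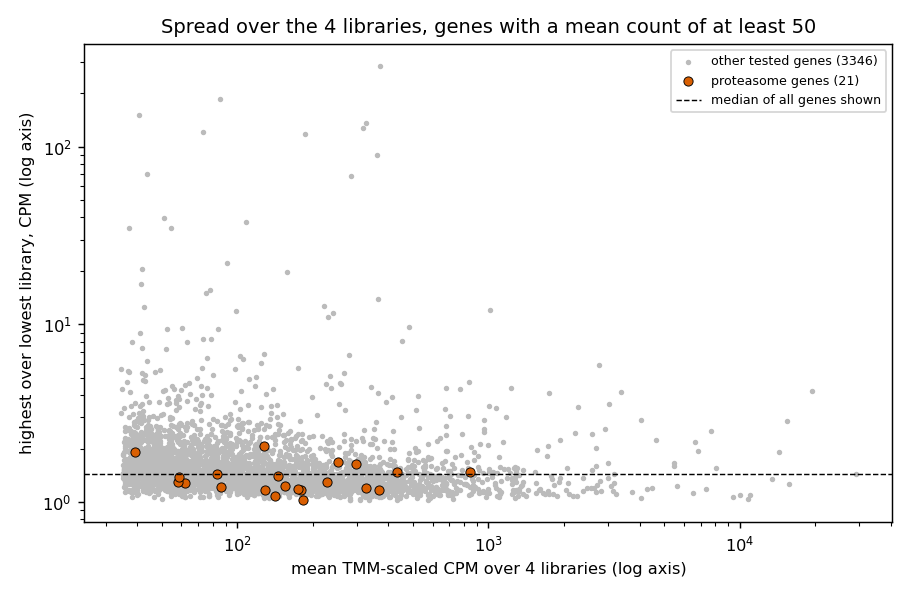
Ratio of the highest to the lowest library (CPM) against mean CPM, both on log axes, for tested genes with a mean count of at least 50 and no library at 0. The 21 proteasome genes run from 1.02 for Psmd4 to 2.07 for Psma6, and 15 of them lie under the dashed median of 1.45.

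In the comparison of rat 2 with rat 1, each side was the 2 ears of 1 animal, given different viruses. Its p-values measure the spread between such ears and cannot speak for rats at large. Between these animals, edgeR called 0 of the 28 tested members other than Psma2 and 5 of all 6370 genes (0.0785%). Of all genes, 147 had an unadjusted p under 0.05. The median log2 difference of these members was -0.06. Both libraries of rat 2 were above both of rat 1 for 2 members, Psmb1 and Psmb7, against 13.7% of all tested genes. They were below for 4 members, Psmb4, Psmc1, Psmd2 and Psme4, against 13.6%. The largest difference was that of Psmb4, at -1.62 (SE 0.74, edgeR adjusted p = 0.9992), from raw counts of 8 and 2 in rat 2 against 13 and 16 in rat 1. All of these values rest on the unsure assignment of the AAV-Fgf7 columns to the rats. With these columns exchanged, any gene of such an order must overlap between the rats, so that overlap is no result about these members.

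Other genes of the ubiquitin pathway, from lists that hold no members, matched 45 of 46 listed genes, of which 28 were tested, and edgeR called 0 higher and 0 lower, with 1 at an unadjusted p under 0.05. Uba6, the second ubiquitin-activating enzyme of vertebrates, was that gene, with raw counts of 28 and 17 in AAV-Fgf7 ears and 9 and 9 in control ears. Like Psma2, it passed the low-count filter through its AAV-Fgf7 libraries alone. It could enter the fit only as a gene that was higher there, so its p is no support and no fold change is given. Uba1, the main activating enzyme, had counts of 971 and 1095 in AAV-Fgf7 ears and 738 and 804 in control ears, a log2 fold change of 0.40 (SE 0.18). Uchl5, a deubiquitinase of the regulatory particle, stood at 0.67 (SE 0.36). Ddi2, the protease that activates NFE2L1, had raw counts of 12 and 16 in AAV-Fgf7 ears and 9 and 6 in control ears. It too passed the filter through its AAV-Fgf7 libraries alone, and no fold change is given for it. Both AAV-Fgf7 ears were above both control ears for each of these 4, and for 14.8% of all tested genes. The 4 were picked by their low p, which favours genes without overlap, so this order is no result about them.

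No test compared the lists with the members, whose median was 0.10, or with all genes, whose median was -0.02. The 7 tested assembly and bound factors had a median log2 fold change of 0.13, the 4 ubiquitin and activating enzyme genes 0.21, the 12 shuttle and unfoldase genes 0.09, and the 5 transcription control genes -0.03. The ubiquitin list includes Uba6 and the shuttle list Ddi2, which passed the filter through their AAV-Fgf7 libraries alone. Nfe2l1 itself had 949 and 1044 counts in AAV-Fgf7 ears and 748 and 1276 counts in control ears, with a log2 fold change of -0.03 (SE 0.24). The core assembly factor gene Pomp had 1 and 1 counts in AAV-Fgf7 ears and none in control ears. The 4 rows listed as Psm pseudogenes (Psmb5-ps, Psmb6-ps, Psmb6-ps2 and Psmb7-ps2) had 0 counts in all libraries.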

How the data were processed

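RNA-seq measured transcripts in ear skin from 2 rats, with 2 AAV-Fgf7 libraries and 2 control-virus libraries of 1299136 to 1601321 counts. The authors deposited raw counts per gene, and a second table with FPKM (fragments per kilobase of gene model, scaled to a total of 1e+06) for the same 54532 rows. The deposited FPKM equalled the count over listed gene length and over a DESeq2-scaled library total, to within a relative difference of 1e-06, for 100% of its values above 0. Per the submitters' processing notes the build was Rnor_6.0 (rn6), whereas the rows carry mouse Ensembl identifiers. The aligner, the counter and the strand setting were not found in these notes, the labels or the file headers. Reads of genes that differ between rat and mouse, or that have near-identical copies, may therefore be counted in part, and a lack of counts does not show a lack of transcript. The gene model length in the tables is the file's own, with no sample.

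Genes were filtered with filterByExpr (edgeR 4.0.16, R 4.3.3), which kept 6370 genes with 98.9% of all counts, and scaled by TMM. AAV-Fgf7 was compared with control virus, and rat 2 with rat 1, by the two-sided edgeR quasi-likelihood test with Benjamini-Hochberg adjustment over all genes tested at a threshold of 0.05. The standard error (SE) of a log2 fold change was its size over the root of its F statistic. Levels are TMM-scaled CPM, counts scaled to a total of 1e+06. Alternatives were RLE scaling, other low-count filters, DESeq2 1.42.0, limma 3.58.1 (voom, and log2(FPKM + 1) and log2(FPKM + 0.1)), rat as a replicate block, and leaving out each library. The edgeR fits were checked on simulated counts. The changes set there were larger than that of any tested member other than Psma2, and the simulated counts had less spread than the data. They were set in genes with an expected count of at least 50. A mean count of at least 50 was reached by 21 tested members, and 7 besides Psma2 lay below it. Small changes and low counts were therefore not covered. The rat number in the titles marks the animal, and it therefore paired its AAV-Fgf7 and control ears. The deviations from the group means of the ears of 1 animal had r = -0.30 over the 6370 genes. Exchanging the 2 AAV-Fgf7 columns would reverse the sign of this r. A single column is named for both AAV-Fgf7 samples in their descriptions, and the remaining treated column went to rat 2 on account of its number, which no other label checks. All library pairs differed by more than sampling noise (chi-square per degree of freedom 6.26 to 20.5). The least value was that of the AAV-Fgf7 library of rat 2 with the control library of rat 1. The greatest was that of the 2 libraries assigned to rat 2. Which assignment is right was not tested. Counting intervals cover counting error only, since reads without molecular identifiers are not independent molecules. Each library is a separate ear, and the p-values for AAV-Fgf7 against control measure the spread between ears of 2 rats. Those for rat 2 against rat 1 measure the spread between the ears of an animal, which were given different viruses.

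Members, subunit classes and lists were chosen with earlier results of these data known. Every member with a count is named. Levels by library are given for the alpha and the catalytic beta subunit genes, for the tested member of largest and of smallest log2 fold change in each other class, and for any member whose highest library was at least 4 times its lowest with at least 10 counts. From the pathway lists, the genes of lowest unadjusted p, up to 4, are named.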

Additional observations from a re-analysis of the deposited data

How the results depend on the processing

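No tested member was called under any alternative run. The count of calls over all genes was 0 with RLE scaling, a mean count of at least 10, limma-voom, both FPKM pseudocounts and rat as a replicate block. It was 3 without the low-count filter, 4 with DESeq2, and 0 to 19 when 1 library was left out, the 19 coming without the control ear of rat 1. With rat as a replicate block the median of the 28 tested members other than Psma2 was 0.11 and Psmc1 changed sign (0.0061). The block changed no call. With the AAV-Fgf7 rat numbers crossed, which was chosen after seeing the data, 0 genes and 0 members were called. Genes at an unadjusted edgeR p under 0.05 then numbered 301, against 75 with the block as numbered. Between rats, calls over all genes were 23 without the low-count filter and 0 with virus as a term, and the Psma2 difference was 0.60 on deposited FPKM. Leaving out 1 library was followed gene by gene for only part of the tested members. Psmc3, Psmc5, Psmc6, Psmd2, Psmd3, Psmd7, Psmd11, Psmd12, Psmd13 and Psmd14 were not followed, so whether their signs held is not shown. Among the others, leaving out 1 library changed the signs of the members listed next. The log2 fold change then ran from -0.56 to 0.22 for Psma3, -0.58 to 1.62 for Psma5, -0.083 to 0.83 for Psma6, -0.085 to 0.69 for Psmb1, -1.90 to 0.38 for Psmb2, -0.72 to 2.39 for Psmb4, -0.033 to 0.33 for Psmb6, -0.24 to 0.28 for Psmc1, -0.93 to 0.44 for Psmd6, -0.29 to 0.27 for Psme4 and -0.34 to 0.13 for Psmf1. These fits leave 1 library alone in its group, and it is assumed to vary like the other group. The cause of these shifts was not tested. With 2 libraries per group an exact two-sided permutation test cannot give a p under 0.33, and counts under about 10 per library limit what can be said of Psma1, Psmd10 and the Psmg genes.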
